A study of Homo sapiens with 4 samples.

Results

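The genes described are the 7 members of the RUNX and ETO families and their partner: RUNX1, RUNX2 and RUNX3, the DNA-binding factors, CBFB, the subunit that pairs with them, and RUNX1T1 (ETO), CBFA2T2 and CBFA2T3, the ETO corepressors. The regions counted for them are all those whose gene name in the deposited annotation is one of these 7 symbols. These were 106 of 45672 regions over 4 tables, and the 7 genes are among 13171 named in them. H3K27ac, acetylation of histone H3 at lysine 27, marks active enhancers and promoters and was mapped by CUT&Tag, which cuts and tags DNA where an antibody has bound the chromatin. The cells were Kasumi-1, an established human acute myeloid leukaemia line with the t(8;21) translocation, cultured in RPMI medium with serum and antibiotics. In 2 samples CRISPR/Cas9 was directed at SETD8 (sgSETD8, genotype labelled as SETD8 knockout). The other 2 received a non-targeting guide (sgNT, genotype labelled WT). All 4 samples therefore carry the RUNX1-RUNX1T1 fusion, and the tables do not tell the rearranged from the intact alleles. The labels state neither how many guides or clones were used nor when the cells were collected. SETD8, whose gene symbol is KMT5A, monomethylates histone H4 at lysine 20.

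RUNX proteins bind DNA through their Runt domain, and CBFB, which binds no DNA itself, raises their affinity for it and protects them from degradation. RUNX1 is needed for the first blood stem cells and for myeloid and megakaryocyte development, RUNX2 for bone formation and RUNX3 for T cells and sensory neurons. The ETO proteins do not bind DNA directly and bring NCOR and histone deacetylase complexes to it; t(8;21) joins the Runt domain of RUNX1 to most of RUNX1T1 and so ties that repressor to RUNX sites. A vertebrate RUNX gene has a distal promoter, P1, and a proximal one, P2, which start different isoforms.

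The 4 promoters shown are 2 that H3K27ac regions covered, P2 of RUNX1 and of RUNX2, each inside a dense region of both groups, and 2 that lay inside no region, P1 of RUNX2 and of RUNX3. Coverage did not follow the promoter type: P1 of RUNX1 lay inside a dense region of both groups, and P2 of RUNX3 inside none. The tables list enhancers, and 18 to 50 regions of a table lie wholly near a start site, so a promoter without a region may still carry the mark. The sequences are those of RefSeq on GRCh38.p14, 250 bases before to 50 bases after the start site, read on the gene's own strand. Capitals mark the RUNX motif TGTGGT or its variant TGCGGT on either strand, so that ACCACA is TGTGGT on the other strand.
RUNX1 P2, chr21:34888650-34888949, minus strand: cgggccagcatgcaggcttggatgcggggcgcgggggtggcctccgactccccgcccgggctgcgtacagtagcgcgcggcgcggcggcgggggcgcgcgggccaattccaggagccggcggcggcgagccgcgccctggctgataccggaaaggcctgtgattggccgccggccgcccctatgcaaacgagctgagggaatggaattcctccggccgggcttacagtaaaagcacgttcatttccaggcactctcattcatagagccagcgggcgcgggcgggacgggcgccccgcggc
RUNX2 P2, chr6:45422025-45422324, plus strand: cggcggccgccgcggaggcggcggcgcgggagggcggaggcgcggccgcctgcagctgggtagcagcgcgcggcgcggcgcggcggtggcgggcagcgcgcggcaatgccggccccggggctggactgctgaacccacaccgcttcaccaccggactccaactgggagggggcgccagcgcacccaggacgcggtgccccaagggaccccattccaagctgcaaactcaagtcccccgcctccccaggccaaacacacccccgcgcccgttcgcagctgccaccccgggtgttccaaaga
RUNX2 P1, chr6:45328080-45328379, plus strand: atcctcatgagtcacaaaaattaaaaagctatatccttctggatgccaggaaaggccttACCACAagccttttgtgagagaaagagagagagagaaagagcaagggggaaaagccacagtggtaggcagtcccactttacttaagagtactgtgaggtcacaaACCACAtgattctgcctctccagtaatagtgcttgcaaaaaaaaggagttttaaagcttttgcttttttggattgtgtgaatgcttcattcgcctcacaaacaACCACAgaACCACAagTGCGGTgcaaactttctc
RUNX3 P1, chr1:24964961-24965260, minus strand: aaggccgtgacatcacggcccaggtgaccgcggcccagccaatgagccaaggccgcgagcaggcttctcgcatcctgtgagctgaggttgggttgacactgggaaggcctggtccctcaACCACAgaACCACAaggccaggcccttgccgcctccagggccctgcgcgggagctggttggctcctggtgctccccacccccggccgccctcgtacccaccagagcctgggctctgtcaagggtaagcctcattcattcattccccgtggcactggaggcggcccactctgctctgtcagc
RUNX2 P1 held 4 TGTGGT motifs and 1 TGCGGT, and RUNX3 P1 held 2 TGTGGT motifs. The other 5 promoters of members in the RefSeq table, P2 of RUNX1, RUNX2 and RUNX3 and those of CBFA2T2 and CBFA2T3, held neither motif. Among 35116 promoters of the same length, 19.6% held either motif and 1.31% held TGTGGT at least 2 times. P1 of RUNX1 has no entry among these promoters, so its sequence was not searched. The distal promoters of RUNX2 and RUNX3 also share an unbroken run of 18 bases with a pair of TGTGGT motifs. The run was picked as the longest that these 2 share, and no other of the 35116 promoters held it. It starts 14 bases past the RUNX2 start and at -133 relative to the RUNX3 start.
Run shared by RUNX2 P1 and RUNX3 P1: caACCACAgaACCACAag
The proximal promoters are rich in G and C, 72.0% in RUNX1 P2 and 76.0% in RUNX2 P2, against 42.7% in RUNX2 P1 and 66.3% in RUNX3 P1. The ETS core GGAA, present in 95.5% of promoters, occurred 6 times in RUNX1 P2 and 2 times in each of the other sequences shown. These matches describe the letters of the windows and say nothing of what is bound there.

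The 4 tables, 2 for each group, fall into a dense and a sparse pair by the naming of their region identifiers. The dense pair held 18061 sgSETD8 and 15149 sgNT regions covering 153 and 133 Mb. The sparse pair held 7276 sgSETD8 and 5186 sgNT regions covering 6.89 and 7.75 Mb. Which sample of a group each table came from was not resolved, and the table read as sparse sgNT names only the cell line in its identifiers. Read depth is unknown, because the tables hold no counts. With 2 tables against 2 the smallest exact two-sided permutation p is 0.333, so values are given for each pair with no p, and the SD over 2 pairs is their only error. Of 7 myeloid blast markers, CD34, KIT and MPO had regions in all 4 tables and SPI1 in both dense tables only. CD33 had one in both sgSETD8 tables and in neither sgNT table, ANPEP in the dense sgSETD8 table alone, and CEBPA in both dense tables and the sparse sgNT table. The 5 erythroid and megakaryocyte markers, GATA1 among them, had none in any table. Lymphoid markers were not at 0: PAX5 had a region in all 4 tables and CD3D, CD3E and CD8A in both dense tables. KMT5A had 1 region in each dense table and 0 in each sparse table, which is no check of the knockout. In bulk chromatin, fewer cells with a mark and less of it per cell cannot be told apart.

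As a family, the 7 genes had nearly as many regions in both groups of the dense pair, and more with sgSETD8 in the sparse pair. The dense tables held 43 member regions with sgSETD8 and 41 with sgNT, and the sparse tables held 13 with sgSETD8 and 9 with sgNT. The log2 ratio of sgSETD8 to sgNT averaged 0.30 ± 0.33 (SD, n = 2 pairs). Over all regions of the dense tables the same ratio was 0.25, and it was 0.49 for the sparse ones. In covered length the members reached 296 kb with sgSETD8 and 318 kb with sgNT in the dense pair, and 11.6 and 10.3 kb in the sparse pair. The log2 ratio of covered length averaged 0.03 ± 0.18 (SD, n = 2 pairs), which is smaller than the spread between pairs. For all regions it was 0.20 in the dense pair and -0.17 in the sparse pair, in each case opposite in sign to the members. Introns held 79.1% of dense member regions with sgSETD8 and 73.2% with sgNT, against 67.5% and 68.3% of all dense regions. Sparse member regions lay in introns in 7 of 13 cases with sgSETD8 and in 7 of 9 with sgNT, where all regions gave 47.3% and 56.1%.

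Gene by gene, RUNX1, RUNX2 and CBFB had more dense regions with sgSETD8, CBFA2T2 had fewer, RUNX1T1 had 1 in each and RUNX3 and CBFA2T3 had none. Over all genes with a dense region in either group, 37.3% had more and 21.2% fewer. In the sparse pair RUNX2, RUNX3, RUNX1T1, CBFA2T2 and CBFA2T3 had more regions with sgSETD8, and RUNX1 and CBFB had fewer. The sparse background was 51.3% more and 33.4% fewer, and 3 of the 5 gains rest on a single region of at most 509 bp. Counting only regions of at least 500 bp left 1 sparse gain in place of 5. Among the regions as deposited, RUNX2 was the only member with more in both pairs, by 8 to 7 and 6 to 4, and no member had fewer in both.

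Covered length moved differently from number. All 5 members with a dense region had one in both groups, as did 68.1% of all genes with one in either, and 2 of 7 with a sparse region did, against 25.3%. In the dense pair RUNX1T1 was covered over at least 1.5 times the length with sgSETD8 and CBFA2T2 over a length at least 1.5-fold shorter, 1 each of the 5 members with regions in both tables; over all such genes 35.6% were past that fold upward and 19.4% downward. In the sparse pair only RUNX1 and RUNX2 had regions in both tables, and RUNX1 was past the fold upward, at 1.504-fold; the background there was 21.1% upward and 43.9% downward. That call sits at the threshold and is lost over the gene's span, where 7.36 kb with sgSETD8 and 5.33 kb with sgNT gave a log2 ratio of 0.47.

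**Figure D1:**
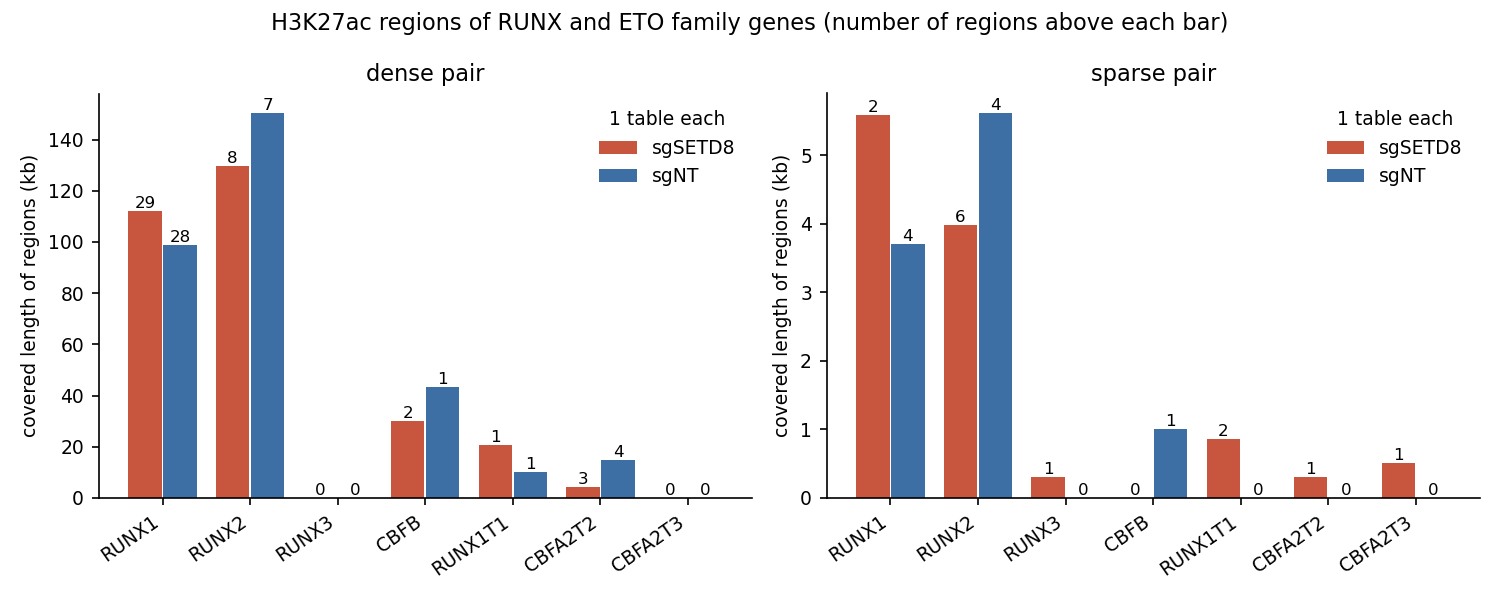
Covered length in kb of the H3K27ac regions of each member, sgSETD8 left of sgNT, in the dense and the sparse pair; each bar is 1 table, its height the covered length and the digits above it the number of regions, with no error bar. RUNX1 has the most regions in the dense pair (29 and 28), RUNX2 the longest covered length (129.5 and 150.5 kb), and RUNX3 and CBFA2T3 have none there.

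Most member regions of the dense pair overlapped a region of the other group by at least 1 bp. Regions without any overlap made up 6 of 43 with sgSETD8 (14.0%, exact Clopper-Pearson 95% interval 5.30 to 27.9%) and 5 of 41 with sgNT (12.2%, 4.08 to 26.2%). Over all dense regions the shares were 34.0% and 22.7%. In the sparse pair 10 of 13 sgSETD8 regions (76.9%, 46.2 to 94.96%) and 6 of 9 sgNT regions (66.7%, 29.9 to 92.5%) had none, where all regions gave 85.1% and 79.1%. The intervals cover counting only and treat regions as independent, although 29 of the 43 and 28 of the 41 dense regions belong to RUNX1 alone. Without RUNX1, 2 of 14 sgSETD8 and 3 of 13 sgNT dense regions had no counterpart. When an overlap of at least 50% of the region was required, 34.9% of dense member regions with sgSETD8 and 26.8% with sgNT had no counterpart. That share was not computed over all regions.

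RUNX1, the Runt factor that the translocation breaks, lies on the minus strand of chr21:34787801-35049302. Dense regions overlapping that span covered 147 kb of it with sgSETD8 and 154 kb with sgNT, 56.3% and 58.9%. Regions named RUNX1 numbered 29 with sgSETD8 and 28 with sgNT in the dense tables and covered 112 and 99.0 kb. A further 16 and 13 regions of the same locus, covering 55.3 and 60.4 kb, are named for RUNX1-IT1, a transcript inside a RUNX1 intron, and are not members. Counting every region over the gene span, named for RUNX1 or not, gave 41 and 37 dense regions and 6 and 5 sparse ones. In the dense tables the RUNX1 regions are nearly all single peaks, 30 in 29 regions with sgSETD8 and 29 in 28 with sgNT, left unjoined though they lie close together.

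Among regions named RUNX1, the best-ranked of each dense table covered P2: chr21:34880225-34899713 with sgSETD8, rank 445 by signal, and chr21:34880060-34898704 with sgNT, rank 573. In the dense sgNT table a region inside the gene that is named RUNX1-IT1, chr21:34982162-35000794, ranked higher, at 482 with a density of 2.00. Signal here is the authors' value, a density per bp multiplied by the region's width, and ranks from tables of different length show no change. The density over P2 was 1.70 with sgSETD8 and 1.78 with sgNT. Over P1 it was 1.78 with sgSETD8 (chr21:35041821-35052552, rank 972) and 2.86 with sgNT (chr21:35041984-35050189, rank 926). The 2 promoters were thus nearly equal with sgSETD8, while P1 was the denser with sgNT. The regions are not of equal width, and with 1 dense table a group the difference has no replicate check. Other well-ranked regions recurred in both groups: one next to P2 (chr21:34904603-34917384, density 1.74, with sgSETD8, and chr21:34904603-34915694, density 2.02, with sgNT), and one on its 3′ side (chr21:34867423-34879134, density 1.49, and chr21:34867423-34879160, density 1.78). A further one lay between the promoters, at chr21:34944285-34951106 with a density of 1.10 with sgSETD8 and at chr21:34942478-34951096 with 1.26 with sgNT.

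When all dense regions were joined at the stitching distance (given with the processing), whatever gene they name, most of RUNX1 fell into a main domain spanning 209.6 kb with sgSETD8 and 196 kb with sgNT. In both groups 4 upstream regions stayed apart from it, and with sgNT so did an intronic one, chr21:34843189-34845329. The main domain held 41 and 36 regions and ranked 13 of 15655 domains with sgSETD8 and 15 of 13253 with sgNT by summed signal. This joining was chosen after the data were seen. The domain's mean density was 1.35 with sgSETD8 and 1.64 with sgNT, a log2 ratio of -0.29. Over all dense regions whose copies in the 2 groups cover each other by at least 90%, the median log2 ratio was -0.26, so that the domain stood at -0.02 relative to it. Upstream of P1, 5 regions in each group named RUNX1 covered 17.5 kb with sgSETD8 and 5.29 kb with sgNT, at mean densities of 0.292 and 0.677. Most of the difference is 1 stitched sgSETD8 region, chr21:35080128-35092115, whose density was 0.105.

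**Figure D2:**
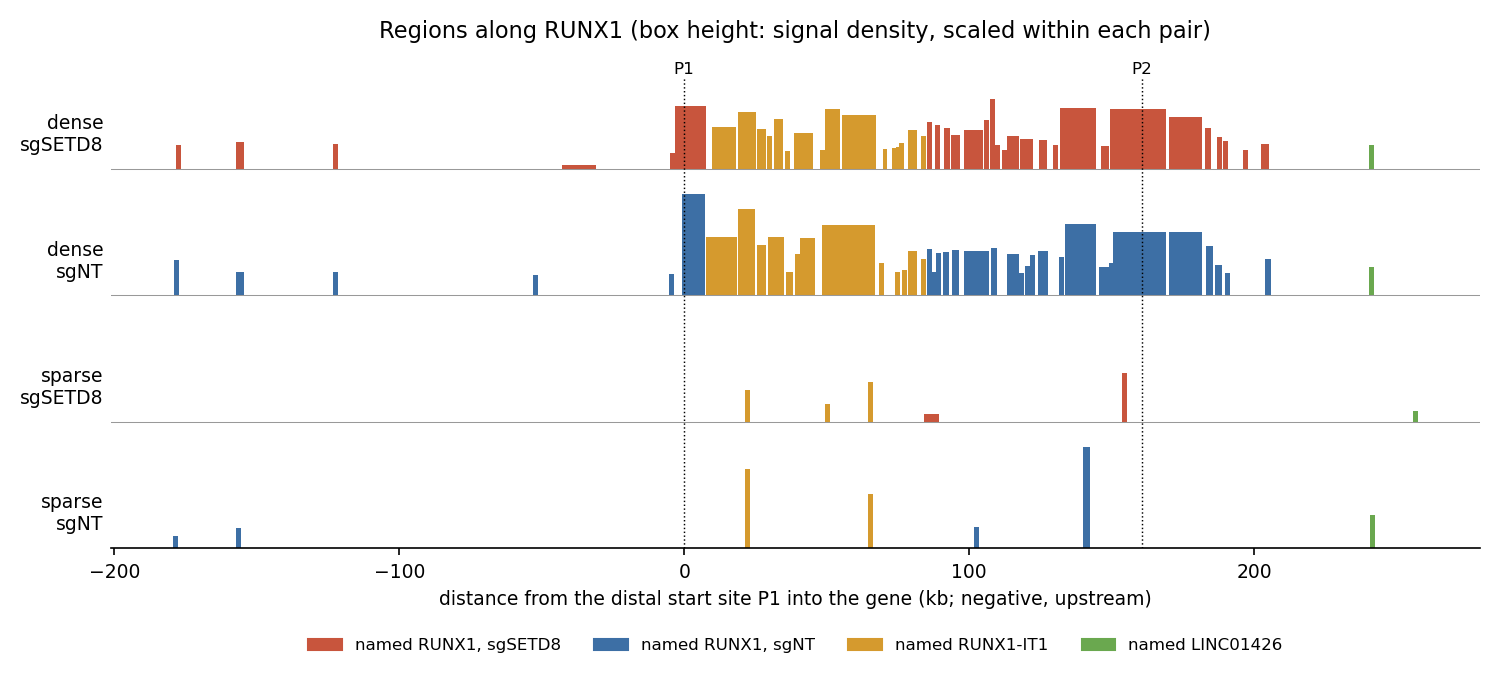
H3K27ac regions along the RUNX1 locus, sgSETD8 above sgNT in each pair, as boxes whose height is the authors' signal density scaled within each pair, against the distance from P1 in kb; the narrowest boxes are drawn wider than to scale. The dense regions fill the stretch between P1 and P2, 161 kb apart, in both groups, while the sparse tables hold few regions there.

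Density was next compared at the same places. Of 1769 dense regions with 90% mutual cover, 4 are named RUNX1, and after subtraction of the median of -0.26 their log2 ratios were 0.00, 0.20, -0.03 and 0.44. The value of 0.20 is the region over P2 and that of 0.44 lies upstream of the gene at chr21:35203871-35206434. The median of the 4 was 0.10, and single regions over all 1769 had a SD of 0.24. None of the 4 was past 1.5-fold in either direction, where 1.41% of all 1769 were past it upward and 1.02% downward.

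A wider set was had by asking for 50% mutual cover, which 6011 dense regions met (median log2 ratio -0.27, SD 0.30), 27 of them named RUNX1 or RUNX1-IT1. Their log2 ratios, relative to that median, lay between -0.41 and 0.69, with 10 below 0, 17 above it and a median of 0.05. The lowest was the region over P1, at -0.41, with 8.65% of all matched regions at or below it. There the sgSETD8 region was 10.7 kb wide and the sgNT one 8.21 kb. Their signals, 19135 and 23473, differed less in proportion than their densities. At 50% mutual cover such differences in width enter every density ratio. Between P1 and the midpoint of the 2 promoters, 80.3 kb into the gene, 6 of 9 regions were below 0, with a median of -0.11. From the midpoint on, 12 of 16 were above 0, with a median of 0.11, and both matched regions upstream of P1 were above 0, at 0.35 and 0.44. The highest value, 0.69, was a narrow region at chr21:34930471, where the density was 0.844 with sgSETD8 and 0.628 with sgNT. That region was 376 bp wide with sgSETD8 and 518 bp with sgNT. The midpoint was chosen after the values were seen, so these counts describe 1 pair of tables and were given no test. Neighbouring regions of a locus share their library and are not replicates.

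**Figure D3:**
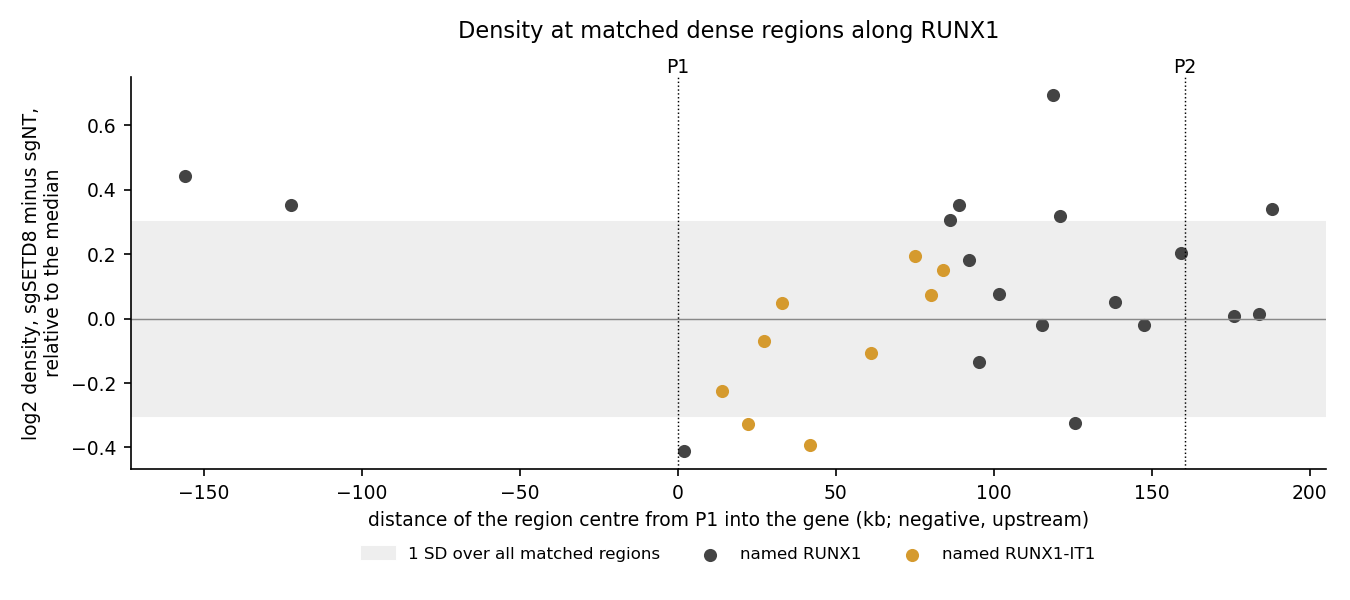
Log2 signal density of sgSETD8 minus sgNT at the 27 dense regions of the RUNX1 locus with 50% mutual cover, relative to the median of all 6011 such regions, against the distance of the region's centre from P1 in kb. Each point is 1 region, the band is 1 SD over all matched regions, and the points nearest P1 lie mostly below 0 and those towards P2 mostly at or above it. The sgSETD8 and sgNT copies of a region can differ in width, which enters their densities.

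Few places in RUNX1 were covered in every table. Inside the gene, 2 stretches were covered in all 4 tables, both named for RUNX1-IT1. The first, chr21:35026899-35027467, lies 21.8 kb into the gene from P1, and its sparse regions had densities of 2.57 with sgSETD8 and 6.49 with sgNT, its dense ones 1.62 and 2.45. The second, chr21:34983682-34984248, had sparse densities of 3.22 with sgSETD8 and 4.45 with sgNT and dense densities of 1.54 and 2.00. In both stretches the sgSETD8 value was the lower in each pair, as was the median density of all regions, which was 0.810 with sgSETD8 and 1.49 with sgNT for sparse regions, and 0.589 and 0.756 for dense ones.

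None of the sparse regions named RUNX1 overlapped one of the other group, as was so for 85.1% of all sparse sgSETD8 and 79.1% of all sparse sgNT regions. With sgSETD8 they were chr21:34894649-34894922, 5.95 kb upstream of P2 with a density of 3.95, and chr21:34959918-34965224 with a density of 0.603. With sgNT they were chr21:34906993-34909215, with a density of 8.26 and rank 93, chr21:34946362-34946744, and 2 regions upstream of P1, chr21:35205275-35205838 and chr21:35227439-35227978. All 6 overlapped a dense region of both groups, so each lay where the other pair had the mark with either guide. The sgNT region of rank 93 was also among the super-enhancers, taken here as the regions ranked above the slope-1 point of the ranked signal, as were the dense regions over P2 in both groups.

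The genes whose region numbers over the 4 tables were nearest to those of RUNX1 were TRAK1, TMEM14EP, FCHSD2, HMGA2-AS1 and MBP. Their distances on the log2(regions + 1) scale ran from 0.34 to 0.87. TRAK1 had 31 dense regions with sgSETD8 and 29 with sgNT, and 2 and 3 sparse ones. RUNX1 itself was the 14th most region-rich gene of the dense sgSETD8 table and the 8th of the dense sgNT table. By covered length it was only 163rd and 184th there. In the sparse tables it was 400th by region number with sgSETD8 and 33rd with sgNT. Unjoined peaks made up 25 of its 29 dense sgSETD8 regions and 23 of its 28 dense sgNT ones. Over all dense regions they made up 2576 of 18061 with sgSETD8 and 2040 of 15149 with sgNT.

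RUNX2, the master factor of osteoblasts, held the family's best-ranked region as deposited in both dense tables and in the sparse sgSETD8 table, while in the sparse sgNT table RUNX1 did, at rank 93 against 459. After joining, RUNX1 ranked above RUNX2 in the dense pair, at 13 against 54 with sgSETD8 and 15 against 32 with sgNT. Its gene lies on the plus strand of chr6:45328330-45551082. With sgSETD8 P2 and much of the gene's body were covered by 2 stitched regions, chr6:45414950-45517412, of 31 peaks, with a density of 1.10 and rank 42, and chr6:45535973-45543501, of 4 peaks. With sgNT the same stretch was a single region of 37 peaks, chr6:45414962-45543510, with a density of 1.34 and rank 27. The first edges of the 2 large regions are within 12 bp of each other, and the last edges of the second sgSETD8 region and the sgNT region within 9 bp. The gap between the sgSETD8 regions is 18.6 kb, more than the stitching distance, and the 2 hold 35 peaks, against 37 in the sgNT region. Relative to the median of matched regions, the large region's log2 density ratio was -0.02, close to the RUNX1 domain's. Covered length named RUNX2 was 129.5 kb with sgSETD8 and 150.5 kb with sgNT in the dense pair and 3.98 and 5.62 kb in the sparse pair, lower with sgSETD8 in both.

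P1 of RUNX2, the bone-type promoter whose sequence holds 5 RUNX motifs, lay 17.3 to 17.7 kb from the nearest region in all 4 tables. That nearest place was chr6:45310252-45310647, upstream of the gene, which all 4 tables covered. There the sparse densities were 0.769 with sgSETD8 and 1.85 with sgNT, while in the dense pair an sgSETD8 region of 1.09 kb had a density of 1.23 and a stitched sgNT region of 10.1 kb one of 0.299. The order of the groups thus differed between the pairs, and the dense widths differ. Inside the large region, chr6:45478081-45478860 and chr6:45494726-45495292 were also covered in all 4 tables. The sparse densities were 2.78 with sgSETD8 and 4.09 with sgNT at the first and 2.21 and 4.33 at the second.

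The other sparse RUNX2 regions were not shared between the sparse tables. With sgSETD8 chr6:45429784-45430067, with a density of 2.34, lay 7.51 kb from P2. Regions past the gene's end were chr6:45553793-45554295, with a density of 1.09, and chr6:45663380-45663748, with 0.897. With sgNT chr6:45436995-45439588, with a density of 2.05, overlapped no sparse sgSETD8 region. It and chr6:45429784-45430067 lay inside the large dense region of both groups. Of the regions past the gene's end, chr6:45663380-45663748 overlapped a dense sgNT region only and chr6:45553793-45554295 no dense region. Past the gene's end, both dense tables had stitched regions of low density, chr6:45665728-45678433 with 0.302 for sgSETD8 and chr6:45659038-45667823 with 0.450 for sgNT. A nearer pair was chr6:45587514-45591660 with 0.665 for sgSETD8 and chr6:45590330-45591344, a single peak, with 1.12 for sgNT. The densities of that pair were above the medians of all dense regions, 0.589 with sgSETD8 and 0.756 with sgNT. In the dense pair the small regions without a counterpart were chr6:45625338-45625893 with sgSETD8 and chr6:45643336-45644525 with sgNT, both past the gene's end. At chr6:45350883, in an intron 3′ of P1, a small region's density was 0.712 with sgSETD8 and 1.12 with sgNT, -0.38 relative to the median.

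**Figure D4:**
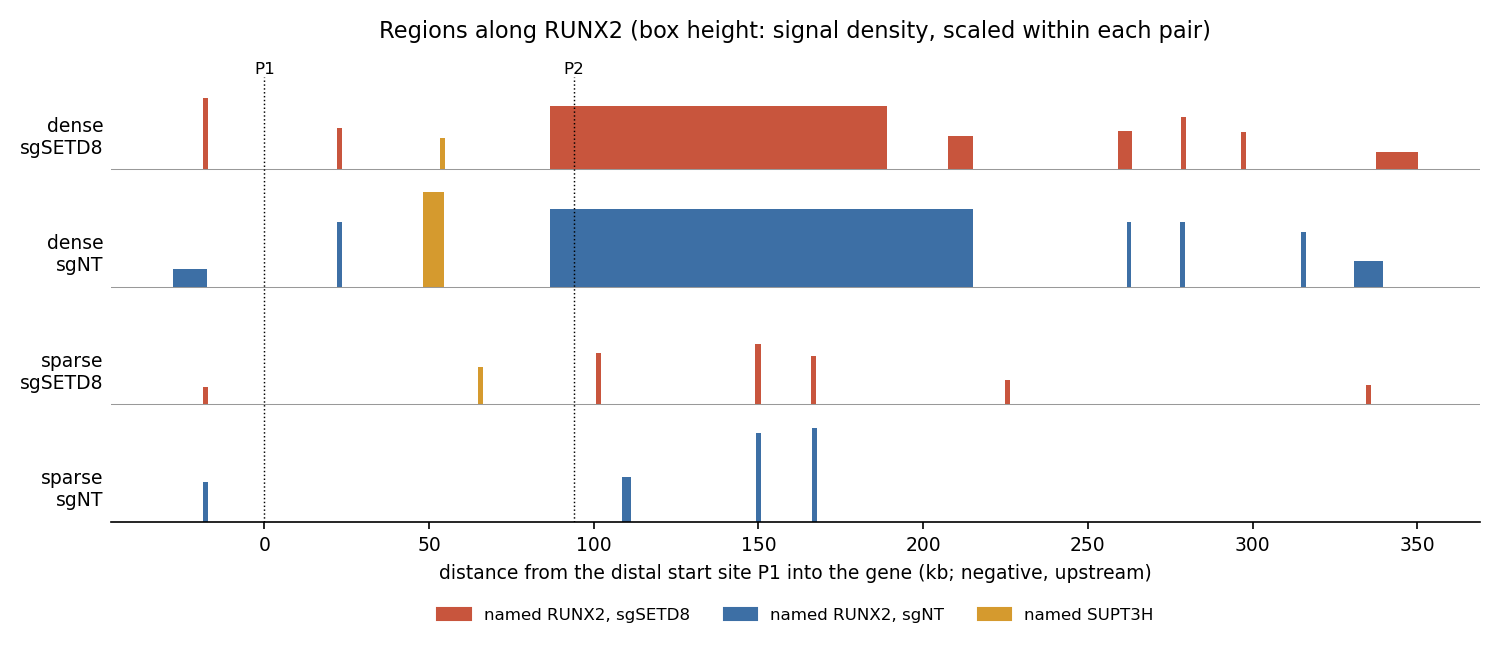
H3K27ac regions along RUNX2, sgSETD8 above sgNT in each pair, as boxes whose height is the authors' signal density scaled within each pair, against the distance from P1 in kb; the narrowest boxes are drawn wider than to scale. The large dense region starts before P2, 93.9 kb from P1, in both groups, and the stretch is 2 boxes with sgSETD8 and 1 with sgNT, while no box of any table reaches P1.

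RUNX3 had nearly no regions in these tables. No region of any table overlapped its span, chr1:24899511-24965138, and the single region named for it was chr1:24970845-24971154 of the sparse sgSETD8 table, 5.84 kb upstream of P1, with a density of 0.837 and rank 4369 of 7276. The nearest dense region lay 126.6 kb from P1 with sgSETD8 and 44.0 kb with sgNT.

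CBFB, the partner of all RUNX proteins, was covered from its start in both dense tables. Its gene lies at chr16:67029149-67101058. With sgSETD8 the regions named CBFB were 2, chr16:67028369-67039554 of 3 peaks with a density of 0.574, and chr16:67053042-67071743 of 5 peaks with 0.401. With sgNT there was 1, of 11 peaks, chr16:67028380-67071774, with a density of 0.613 and rank 775, outside the 709 that rank above the slope-1 point. A further region inside the gene in each dense table is named C16orf70. The outer edges of the CBFB regions were again close, and the greater number with sgSETD8 stands beside a smaller covered length, 29.9 kb against 43.4 kb with sgNT. The sparse pair had no CBFB region with sgSETD8 and 1 with sgNT, chr16:67062674-67063684, with a density of 3.02. At CBFB as at RUNX2, 2 stitched regions of sgSETD8 thus stood against 1 of sgNT, which is the whole of the difference in region number, and the sgSETD8 regions held fewer peaks, 8 against 11 at CBFB.

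RUNX1T1, the ETO part of the fusion, had 1 dense region in each group, both inside chr8:91954967-92103385, which gives the gene's span. With sgSETD8 it was chr8:92014506-92035016, of 5 peaks with a density of 0.433, and with sgNT chr8:92021178-92031310, of 4 peaks with a density of 0.652. The sgSETD8 region was 2.02 times as long and contained the sgNT one. In the sparse pair only sgSETD8 had regions: chr8:92014539-92015012, which is annotated as exonic and overlaps the added part of the dense sgSETD8 region, and chr8:92230876-92231267 upstream of the gene, whose centre is annotated as an LTR12C repeat and which no dense region overlaps. Their densities were 0.760 and 0.785, and their ranks 2880 and 3515 of 7276.

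CBFA2T2, an ETO corepressor with its own roles in stem and germ cells, had short dense regions in its introns. One recurred in both groups, chr20:33530056-33533201 with sgSETD8 and chr20:33531172-33533177 with sgNT, with densities of 0.410 and 0.779. Its log2 ratio, -0.66 relative to the median of matched regions, was the lowest of the members, and 2.18% of all 6011 lay at or below it. The sgSETD8 region joined 2 peaks over 3146 bp, and the sgNT region was 1 peak of 2006 bp. Their signals, 1290 and 1562, differed less in proportion than their densities. At a second intronic place the regions of the groups met only at their edges, chr20:33577097-33577547 with sgSETD8 and chr20:33576658-33577129 with sgNT, at densities of 0.396 and 0.703. The overlap was 7.32% of the sgSETD8 region and 6.99% of the sgNT one. Without a counterpart were chr20:33547110-33547618 with sgSETD8 and chr20:33552619-33552974 with sgNT, and the sparse pair held only chr20:33479988-33480299, with sgSETD8, upstream of the gene at a density of 0.938. A dense region upstream of the gene, chr20:33462854-33474651, had no counterpart with sgSETD8 and was found with sgNT, and its 11.8 kb make up most of the difference in covered length, 4.11 kb with sgSETD8 and 14.6 kb with sgNT. Over the gene's own span, covered length was 4.11 kb with sgSETD8 and 2.83 kb with sgNT, so the direction turned. CBFA2T3, the corepressor needed to maintain blood stem cells in mouse, had 1 sparse sgSETD8 region inside the gene, chr16:88958956-88959464, with a density of 1.08. A dense sgSETD8 region inside the same gene, chr16:88921082-88922594, is named for another transcript, and no sgNT region overlapped CBFA2T3.

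**Figure D5:**
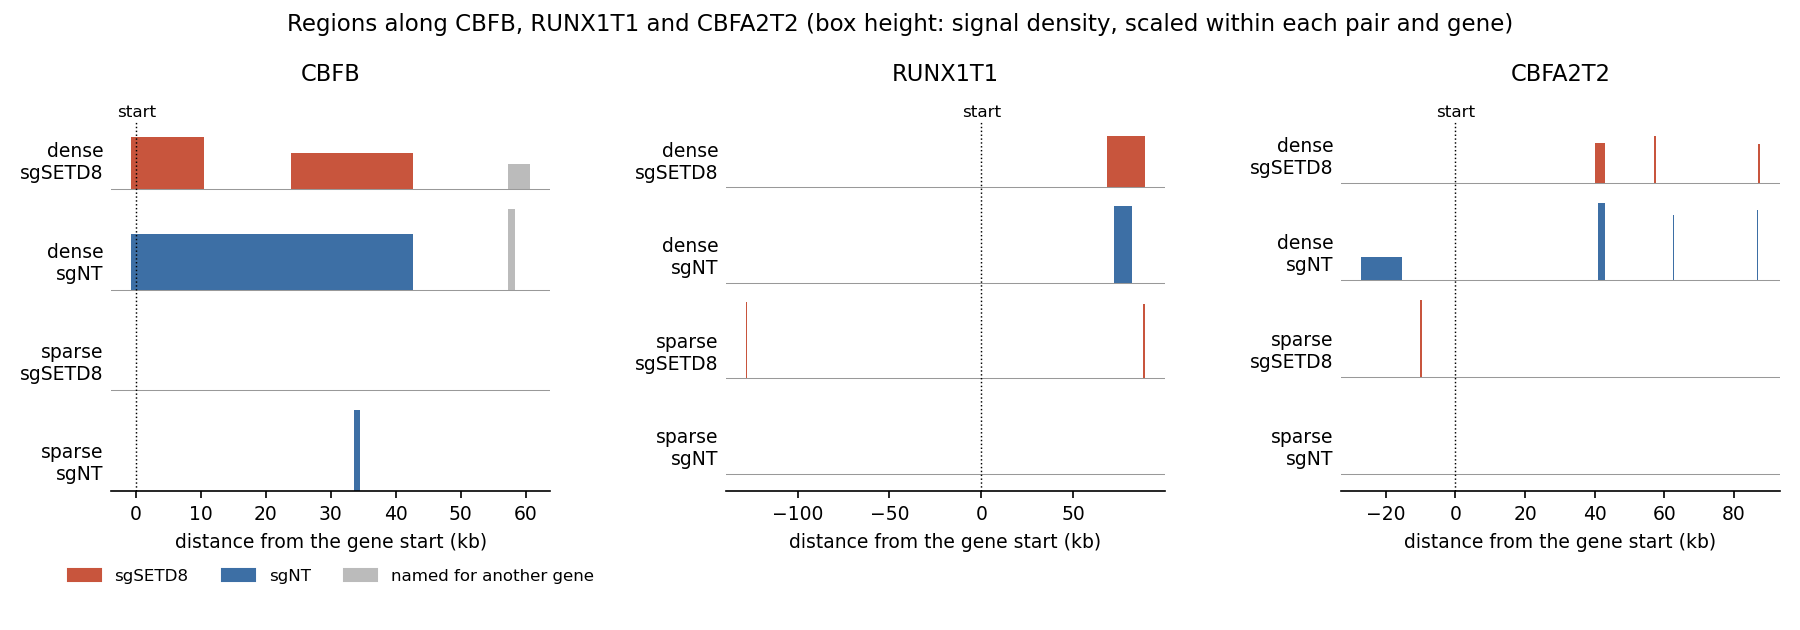
H3K27ac regions along CBFB, RUNX1T1 and CBFA2T2, sgSETD8 above sgNT in each pair, as boxes whose height is the authors' signal density scaled within each pair and gene, against the distance from the gene start in kb; the narrowest boxes are drawn wider than to scale. Grey boxes are named for another gene. The boxes named CBFB are 2 with sgSETD8 and 1 with sgNT in the dense pair, the dense RUNX1T1 box is longer with sgSETD8, and the wide CBFA2T2 box upstream of the start is an sgNT one.

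Among the partners and corepressors through which RUNX1 and the fusion act, the dense pair gave shares with more and with fewer regions near those of all genes. Of 26 such genes 19 had a dense region, 7 with more and 5 with fewer regions with sgSETD8, against 37.3% of all genes with more and 21.2% with fewer. They held 87 regions with sgSETD8 and 79 with sgNT, of which JMJD1C, a histone demethylase that binds the fusion, held 39 and 33; without it the totals were 48 and 46. In the sparse pair 15 had one, 3 with more and 9 with fewer, against 51.3% and 33.4% of all genes, and they held 21 regions with sgSETD8 and 24 with sgNT, of which JMJD1C held 7 and 3. The median difference was -1 for the list and 1 for all genes. HDAC3, the deacetylase of the NCOR complex, had 2 dense regions with sgSETD8 and 0 with sgNT. FLI1, an ETS factor that binds beside RUNX1, had 10 dense regions with sgSETD8 and 12 with sgNT, and 0 and 1 sparse ones. TBL1X, a subunit of the NCOR complex, had 6 and 4 dense regions and 0 and 1 sparse ones, and CARM1, a methyltransferase of RUNX1, had 1 in each dense table and 0 and 1 in the sparse tables. Dense covered length did not follow number at FLI1, with 20.6 kb with sgSETD8 and 12.6 kb with sgNT. Nor did it at TBL1X, with 42.75 and 66.6 kb, or at CARM1, with 1.07 and 28.6 kb.

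Of 27 genes known as RUNX1 or fusion targets, 24 had a dense region, 2 with more and 7 with fewer with sgSETD8, and 15 were equal, against 37.3% of all genes with more and 21.2% with fewer. They held 57 regions with sgSETD8 and 70 with sgNT. MYB, a transcription factor of blood progenitors, made up most of that gap, with 3 regions with sgSETD8 and 13 with sgNT, and without it the totals were 54 and 57. Its covered length went the other way, 57.1 kb with sgSETD8 and 32.3 kb with sgNT. MYB, JMJD1C, GFI1, PRKCB, UBASH3B and IL3 were named after their values were seen. In the sparse pair 13 had a region, 1 with more and 6 with fewer, against 51.3% and 33.4% of all genes, and 17 regions with sgSETD8 and 25 with sgNT in all, with a median difference of 0 against 1 for all genes. By region number, fewer was thus the more common direction for targets in both pairs, while over all genes more was. Covered length did not always follow. Besides MYB, the dense targets GFI1 (87.8 and 53.8 kb), PRKCB (128 and 89.3 kb) and UBASH3B (143 and 126 kb) had fewer regions but more length with sgSETD8. CEBPA (6.3 and 15.7 kb), RASSF2 (7.3 and 8.5 kb) and IL3 (0 and 2.0 kb) had less of both. CEBPA, the granulocytic factor repressed in t(8;21) leukaemia, had 1 dense region with sgSETD8 and 2 with sgNT, and 0 and 1 sparse ones. RASSF2, a tumour suppressor and target of the fusion, had 1 and 2 dense regions and 0 and 2 sparse ones. CSF1R, the macrophage growth factor receptor, had 4 dense regions in each group, covering 37.0 kb with sgSETD8 and 15.4 kb with sgNT, and 0 and 1 sparse ones. CDKN1A, the cell cycle inhibitor p21, went the other way, with 2 and 0 dense regions and 1 and 0 sparse ones. With 2 pairs, and lists chosen with earlier results known, these counts are descriptions.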

How the data were processed

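H3K27ac CUT&Tag of Kasumi-1 cells was analysed from the 4 deposited tables of enhancer regions. Per the submitters' processing notes, cutadapt and Bowtie2 were used with the hg38 build; no versions are listed. How peaks were called, stitched and annotated is not given in the sources used here; 12500 bp was taken as the stitching distance. The authors' value is a signal, a density per bp times the width of the region, and its scaling is not stated. Depth is unknown, and signal was used to rank regions within a table and, at matched dense regions, relative to their median log2 ratio. Each table's group came from the guide named in its identifiers, and for the sparse sgNT table from the absence of a SETD8 guide name. The series design names another mark than the sample labels, and the labels were followed. The number of value columns without a group was 0.

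Regions were assigned to genes by the deposited annotation, and gene spans and promoters came from RefSeq (GRCh38.p14). Of the 7 members, 5 had an entry in the promoter table, and that of RUNX1 was for P2 only. A region's counterpart overlapped it by at least 1 bp. Calls used a 1.5-fold change in covered length or density. The samples of a group may be technical repeats, since the labels do not say that they came from separate cultures. The members, lists, regions and tests were chosen with earlier results of these data known. Named regions were all those of members with up to 6 in a table, otherwise the 5 best-ranked and those without a counterpart in the better-ranked part of the table; a few more were named after their values were seen. Named list genes were up to 4 a list, first those with regions in 1 group only, then by difference. Alternatives were a minimum width of 500 bp, the 5000 best-ranked regions, gene spans, merging within 12500 bp, peak counts, other overlap rules, density settings and leaving out a pair. Scripts were tested on simulated data. Motifs were searched only in promoters, since the sequence of the regions was not used here. The work was done in Python 3.11.15 with pandas 2.3.3, numpy 2.4.6, matplotlib 3.10.9 and scipy 1.17.1.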

Additional observations from a re-analysis of the deposited data

How the results depend on the processing

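With regions of at least 500 bp, the members' mean log2 ratio of region number was -0.28 in place of 0.30, that of covered length -0.14 in place of 0.03, and the difference in the share without a counterpart, sgSETD8 minus sgNT, -5.43 in place of 6.01 percentage points. With gene spans the log2 ratio of covered length was -0.048, and that of RUNX1 region number 0.21 in place of -0.47. Without the median subtracted, the median density ratio of the 4 RUNX1 regions was -0.17. Leaving out 1 pair gave 0.07 to 0.53 for region number, -0.10 to 0.16 for covered length and 1.76 to 10.3 points for the share without a counterpart. The cause of these turns was not tested.

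Dense members with fewer regions numbered 1, and 0 with at least 500 bp or gene spans and 2 with merging. Sparse members with more numbered 5, and 1 with at least 500 bp, and those with fewer numbered 2, and 1 with gene spans. With at least 500 bp, dense partners with fewer numbered 3 in place of 5, dense targets with more 4 in place of 2, and sparse targets with more 0 in place of 1. Over the alternative settings of the values that a comparison rests on, 39 outcomes stayed the same, 6 reversed and 8 moved. A value can have several outcomes, so these are not separate results. For ratios and differences in share, same meant the same direction and within 1 SD of the main value. For counts it meant within 1.5 times. Joining regions whatever gene they name, chosen after seeing the data, put RUNX1 at rank 13 with sgSETD8 and 15 with sgNT in place of 445 and 573. Ratios were taken within the pairs of tables, formed by naming scheme, and no paired test was run, as no result comes from a test. Whether these pairs match the labels' replicate numbers is not known. The motif share of the central part of dense regions was not run, as no genome was used here.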
